A study of Mus musculus with 19 samples.

Results

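The genes described here are the 4 members of the mouse TCF/LEF family, Tcf7, Lef1, Tcf7l1 and Tcf7l2, chosen by name. All 4 were present in a table of 18607 genes. The table holds RNA levels of 19 bulk libraries from sorted C57BL/6 bone marrow progenitors at 3 stages on the way to innate lymphoid cells. ALP (7 libraries) are lymphoid progenitors that can still give rise to B, T and innate lymphoid cells. They were sorted as linlow Ly-6Dlow Kit+ IL-7Ra+ Flt3high cells. EILP (early innate lymphoid progenitors, 7 libraries) were sorted as Kit+ cells with high green fluorescence, low CD122 and low Thy-1.2 and with IL-7Ra at an intermediate or low level. ILCp (innate lymphoid cell precursors, 5 libraries) were sorted for high green fluorescence, Thy-1.2, high IL-7Ra and a4b7. The mice of 17 libraries, including all ALP and EILP, carried 1 Tcf7EGFP allele, a fluorescent reporter at Tcf7 itself. The remaining 2 libraries, ILCp 4 and ILCp 5, came from Plzf-cre-GFP/+ mice, in which green fluorescence reports Zbtb16 (PLZF) and not Tcf7. All EILP and the first 3 ILCp libraries were therefore picked through the Tcf7 reporter, so their high Tcf7 RNA is a check of the sort and not a finding. The labels do not say whether the Tcf7EGFP allele still makes TCF-1 or Tcf7 RNA. Nor do they say whether libraries of a group came from separate mice, so p-values measure the spread between libraries, which may in part be technical.

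TCF/LEF proteins bind DNA through an HMG box. On target genes they recruit either β-catenin, the nuclear effector of Wnt signalling, or Groucho/TLE corepressors. In mouse, TCF-1 (from Tcf7) starts the T cell programme and is needed for early innate lymphoid progenitors, and LEF-1 acts beside it in developing lymphocytes. TCF-3 (from Tcf7l1) is known mainly as a repressor in embryonic stem cells and skin, and TCF-4 (from Tcf7l2) is best known from the intestine.

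The family's loci lie on 4 chromosomes (GRCm38, the build of the submitters' mm10, GENCODE M21). Tcf7 spans 52252371 to 52283014 on the minus strand of chromosome 11, and Lef1 spans 131110471 to 131224356 on the plus strand of chromosome 3. Tcf7l1 spans 72626378 to 72789254 on the minus strand of chromosome 6, and Tcf7l2 spans 55741820 to 55933654 on the plus strand of chromosome 19. The 3 windows of 250 bases printed here end at annotated RefSeq starts (GRCm38.p6). They are shown because Lef1 and Tcf7l2 changed in opposite directions between ALP and EILP. Each was searched on both strands for ACAAAG and TCAAAG, the core of the element that TCF/LEF HMG boxes bind, and matches are in capitals. The sequences run 5′ to 3′ on the strand of the gene.

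Lef1, first start, chr3:131110047-131110296, plus strand: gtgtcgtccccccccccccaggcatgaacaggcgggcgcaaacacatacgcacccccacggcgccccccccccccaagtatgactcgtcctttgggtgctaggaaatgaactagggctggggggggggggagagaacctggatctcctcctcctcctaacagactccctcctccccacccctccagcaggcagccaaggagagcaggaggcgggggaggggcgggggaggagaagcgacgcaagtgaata
Lef1, internal start, chr3:131156044-131156293, plus strand: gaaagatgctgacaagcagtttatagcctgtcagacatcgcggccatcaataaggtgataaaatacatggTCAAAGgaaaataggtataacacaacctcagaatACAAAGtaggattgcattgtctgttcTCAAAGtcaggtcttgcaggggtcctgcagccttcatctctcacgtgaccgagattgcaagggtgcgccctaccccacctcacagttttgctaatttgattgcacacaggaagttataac
Tcf7l2, first start, chr19:55741560-55741809, plus strand: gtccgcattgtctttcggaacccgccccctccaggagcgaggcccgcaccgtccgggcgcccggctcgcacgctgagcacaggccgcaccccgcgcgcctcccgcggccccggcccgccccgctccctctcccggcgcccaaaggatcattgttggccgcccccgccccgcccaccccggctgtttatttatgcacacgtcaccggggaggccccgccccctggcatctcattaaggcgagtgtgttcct

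The window before the first Lef1 start and that before the first Tcf7l2 start held no match. The window before the internal Lef1 start held 3 matches, beginning 180, 146 and 120 bases before that start. The window before the internal Tcf7l2 start (chr19:55895071-55895320) held 1 match, beginning 14 bases before that start. The Tcf7l1 window held 1 match at 28 bases, and the 2 further Lef1 windows and the 2 Tcf7 windows held none. Among all 32851 RefSeq windows of this length, 27.6% held at least 1 match and 0.776% held 3 or more. A match is a description of letters, not a binding site. The table gives 1 value per gene, so transcripts from different Lef1 starts cannot be told apart in what follows.

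Levels are in log2 CPM (log2 of counts scaled to a common library total) and had been shifted gene by gene between the 5 sequencing batches before deposit. The shift of each batch could be recovered from the values, because without it every library uses the same set of levels. Both the level as deposited and the level with the shift undone are given where they differ in what they show. Undoing the shift also shows which libraries sit at the lowest common level of −4.96, called zero here. Of the 15463 genes whose shifts could be undone in every batch, between 23.1% and 41.6% sat at zero in a library. Total read counts are unknown, so a zero carries no detection limit. Of the sort markers, Flt3 was highest in ALP at 10.21 ± 0.69 (SD, n = 7), and Thy1 and Il7r were highest in ILCp at 5.30 ± 0.83 and 9.93 ± 0.37 (SD, n = 5). With shifts undone these 3 values were 10.52, 4.72 and 9.92, and still the highest of the 3 stages. Ly6d was also highest in ALP, at 5.67 ± 1.03 (SD, n = 7), where the gate asked for low Ly-6D protein. With shifts undone Ly6d stood at 5.36 in ALP, again the highest of the 3 stages. Itga4 and Itgb7 encode a4b7, which was named in the ILCp gate. Itga4 was at 9.38 ± 0.105 in EILP (SD, n = 7) and 8.76 ± 0.36 in ILCp (SD, n = 5). Itgb7 was at 9.04 ± 0.24 and 9.19 ± 0.40 in these groups. Il2rb, which encodes CD122, was at 7.14 ± 1.57 in EILP (SD, n = 7), where the gate asked for low CD122 protein. It was at −1.68 ± 2.88 in ALP (SD, n = 7) and 6.61 ± 0.61 in ILCp (SD, n = 5). With shifts undone EILP lay below ILCp for Il2rb, at 6.81 ± 0.46 and 7.35 ± 0.62. Zbtb16, the gene reported in the second strain, was at 6.97 ± 1.01 in EILP (SD, n = 7) and 6.48 ± 0.76 in ILCp (SD, n = 5). That order also turned with shifts undone, to 6.62 ± 0.60 and 7.62 ± 0.42. In bulk libraries, fewer cells that express a gene and less RNA per cell cannot be told apart.

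Tcf7 separated ALP from both later stages in all libraries. As deposited, the 7 ALP libraries stood at 1.85, 1.45, 2.70, 3.15, −2.66, 3.59 and −2.66 log2 CPM in the order of their numbers. The 7 EILP libraries stood at 9.40, 8.47, 10.45, 10.58, 8.76, 12.88 and 13.07, and the 5 ILCp libraries at 9.56, 9.25, 8.95, 9.46 and 8.96. No ALP library reached the lowest EILP or ILCp library. ALP 5 and ALP 7 were at zero, while the other 5 ALP libraries had Tcf7 RNA between 1.29 and 4.38 log2 CPM once the shift was undone.

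The EILP libraries spread more widely than the ILCp libraries in the deposited levels, at 10.51 ± 1.85 (SD, n = 7) against 9.24 ± 0.28 (SD, n = 5). Much of that spread followed the batches. EILP 6 and EILP 7, both of batch 5, carried a shift of 2.30 and fell to 10.58 and 10.77 when it was undone. With shifts undone, EILP stood at 9.98 ± 0.70 (range 8.97 to 10.77) and ILCp at 10.47 ± 0.34 (range 10.15 to 10.93), and the groups overlapped.

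**Figure D1:**
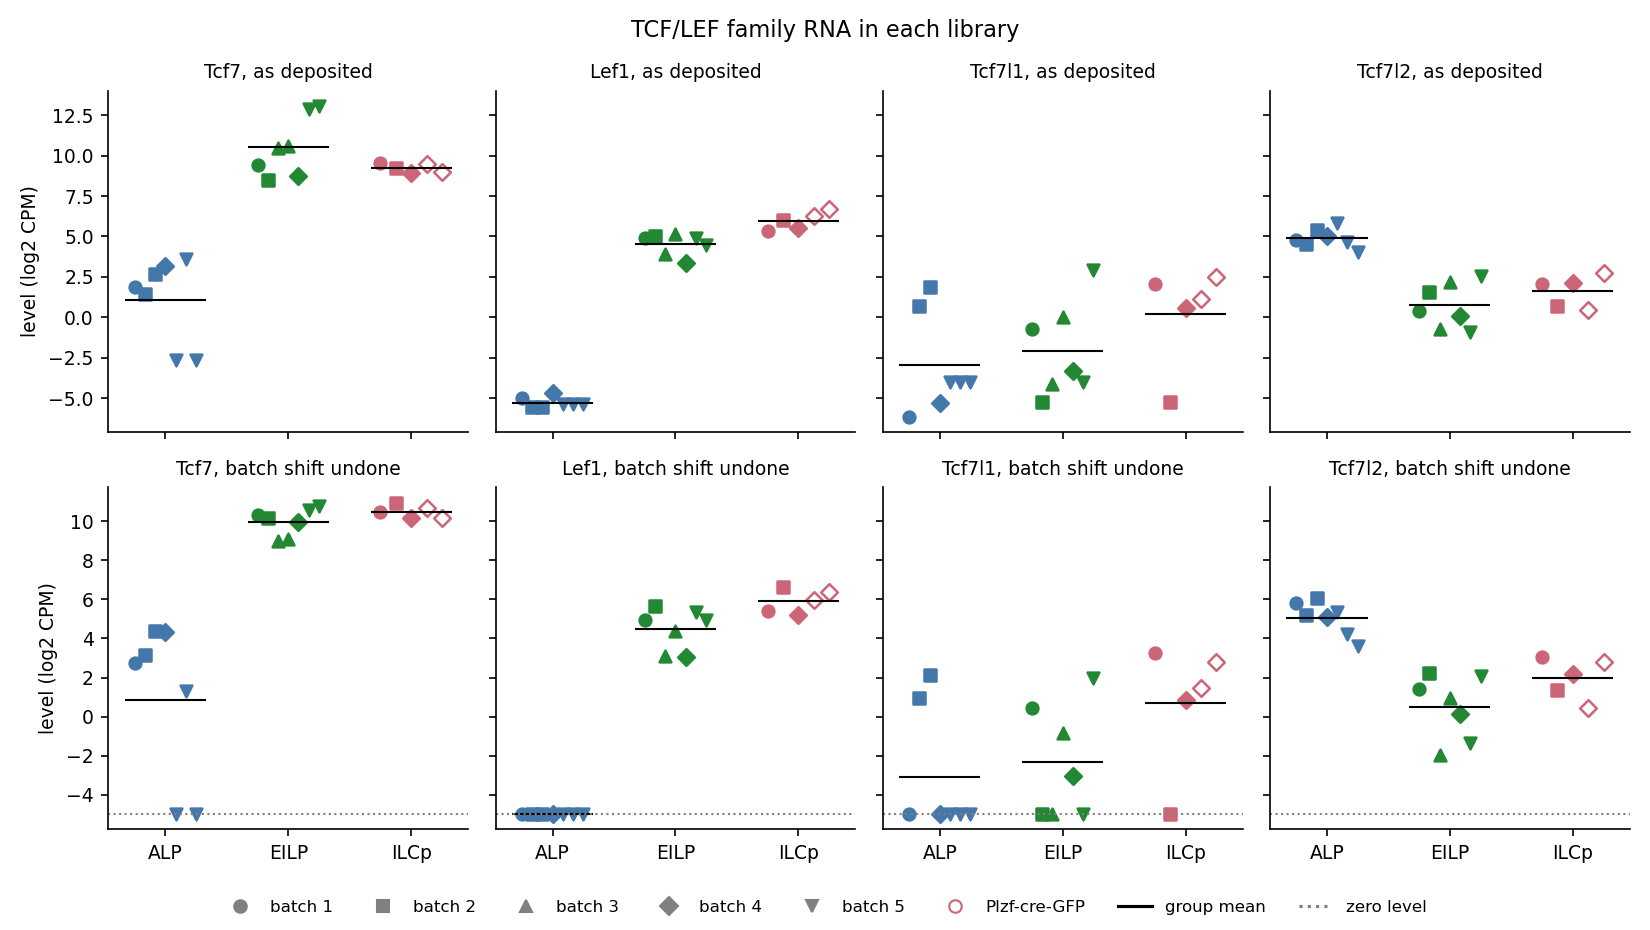
Level of each TCF/LEF gene in each library, in log2 CPM, as deposited (top) and with the batch shift undone (bottom), by sorted group. Each point is 1 library, its shape gives the batch, open points are Plzf-cre-GFP libraries, bars are group means and the dotted line is zero. Tcf7 and Lef1 are high in every EILP and ILCp library, Tcf7l2 is highest in ALP, and the deposited Tcf7 levels of EILP 6 and EILP 7 (12.88 and 13.07) come down to 10.58 and 10.77.

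ILCp 4 and ILCp 5 give Tcf7 levels that the Tcf7 reporter did not choose. Within batch 4 they stood at 9.46 and 8.96 log2 CPM. The Tcf7EGFP library of the same stage and batch, ILCp 3, stood at 8.95, and ALP 4 at 3.15. The Plzf-cre-GFP libraries were thus at the level of the reporter-sorted ILCp, far above ALP of the same batch. Between the strains, limma with batch in the model estimated a Tcf7 difference of −0.06 ± 2.15 (SE), with a 95% interval from −4.65 to 4.54 and an adjusted p of 1. An interval this wide does not show that the strains were alike, and the sign of the estimate changed when single libraries were left out (−0.80 to 0.85). None of the 4 members passed in this contrast, in limma or at an unadjusted p below 0.05, and 0.0752% of all genes did (0.0645% higher and 0.0107% lower in the Plzf-cre-GFP libraries, 14 genes). The Lef1 difference was 1.07 ± 0.96 log2 units (SE), with a 95% interval from −0.99 to 3.13 and an adjusted p of 1.

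Lef1 was the member with the sharpest onset. All 7 ALP libraries were at zero. The 7 EILP libraries stood at 4.90, 5.06, 3.92, 5.17, 3.36, 4.91 and 4.50 log2 CPM as deposited, and the 5 ILCp libraries at 5.33, 6.03, 5.51, 6.27 and 6.67. Every EILP library therefore had Lef1 RNA, and the lowest ILCp library lay above the highest EILP library in the deposited levels. That highest library, EILP 4, is of batch 3, which holds EILP alone. The deposited levels of batch 3 average to the EILP mean, so the place of EILP 4 in this order was partly set by the removal of batch. With shifts undone the order was less complete, since EILP ran from 3.07 to 5.67 and ILCp from 5.22 to 6.64. The labels do not name Lef1 in any gate.

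Tcf7l2 ran the other way. Its deposited levels were 4.81, 4.51, 5.42, 5.06, 5.82, 4.68 and 4.07 log2 CPM in the 7 ALP libraries. They were 0.40, 1.55, −0.73, 2.21, 0.11, −0.91 and 2.56 in EILP, and 2.05, 0.69, 2.14, 0.42 and 2.76 in ILCp. The lowest ALP library was above the highest library of either later stage, and EILP and ILCp overlapped. No library was at zero for Tcf7l2.

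Tcf7l1 was present in some libraries of every stage, and no difference between stages was clear. It was at zero in 5 of 7 ALP, 3 of 7 EILP and 1 of 5 ILCp libraries. Where it was present with shifts undone, it reached 2.13 log2 CPM in ALP, 2.00 in EILP and 3.23 in ILCp. Its group means as deposited were −2.98 ± 3.05 (SD, n = 7), −2.07 ± 2.91 (SD, n = 7) and 0.20 ± 3.12 (SD, n = 5), so the SDs exceeded the differences between neighbouring stages.

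Between ALP and EILP, the step at which the innate lymphoid path is entered, 3 of the 4 members passed the test, in different directions. The test was limma with batch in the model over all 19 libraries and a Benjamini-Hochberg adjusted p below 0.05, which 5.05% of all genes passed (2.25% higher and 2.79% lower in EILP). Tcf7 was higher in EILP by 9.46 ± 1.19 log2 units (SE, adjusted p = 0.000124), and all EILP libraries exceeded all ALP libraries of their batch. Its difference within single batches ran from 5.61 in batch 4 to 13.55 in batch 5, where 2 of 3 ALP libraries were at zero. Lef1 rose as well (adjusted p = 4.21e-08), but no fold is given for it because ALP was listed at 0 throughout. Tcf7l2 fell by 4.17 ± 0.72 log2 units (SE, adjusted p = 0.00207), with −4.41, −3.41, −4.95 and −4.03 in batches 1, 2, 4 and 5. Tcf7l1 differed by 0.91 ± 1.89 log2 units (SE, adjusted p = 0.860), with a 95% interval from −3.11 to 4.93.

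At the step from ALP to EILP, 3 of 10 measured B cell markers fell in limma (Ebf1, Vpreb2 and Blnk), where 2.79% of all genes fell. No T cell marker passed, and 2 of 9 measured NK cell markers rose, where 2.25% of all genes rose. Marker sums are of levels as deposited. The 10 measured of 11 listed B cell markers summed to 132 to 329 CPM in ALP and 55.2 to 107 CPM in EILP. Pax5 and Vpreb2 were among those at zero in every EILP library, but Pax5 did not pass (−0.65 ± 0.51 log2 units, SE). The 10 T cell markers summed to 6.86 to 232 CPM in ALP and 11.8 to 45.1 CPM in EILP, with Cd3d, Cd3e, Cd3g and Cd8b1 at zero in every ALP library and Cd4 at zero in every EILP library. The 9 measured of 10 NK cell markers summed to 1.23 to 128 CPM and 4.78 to 126 CPM, with Gzma, Klre1 and Eomes at zero in every ALP library and Prf1 in every EILP library. Their part in the family's changes was not tested.

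Between EILP and ILCp, 3.21% of all genes passed in limma (1.76% higher and 1.46% lower in ILCp) and none of the 4 members did, with Lef1 alone below an unadjusted p of 0.05. For Lef1 the difference was 1.42 ± 0.66 log2 units (SE), with an unadjusted p of 0.0482 and an adjusted p of 0.295 in limma. All 5 ILCp libraries were above the EILP library of their batch, by 0.43, 0.97, 2.14, 2.91 and 3.31. The last 3 values share 1 EILP library, EILP 5, which was the lowest of its group. Without EILP 5 the Lef1 difference was 0.73, and without the 2 Plzf-cre-GFP libraries it was 1.08.

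For Tcf7 the direction depended on the groups fitted and on how batch was handled. The model with all libraries gave −1.28 ± 1.41 log2 units (SE, adjusted p = 0.717 in limma), and −2.30 to −0.78 with 1 library left out. Fitted on EILP and ILCp alone, the difference was 0.43, and the shift-free levels without batch gave 0.50. All 5 ILCp libraries stood above the EILP library of their own batch, by 0.16, 0.79, 0.19, 0.70 and 0.20. Batch 5, which holds the 2 highest deposited EILP levels, has no ILCp library to set beside them. The difference passed the threshold under no setting tried (adjusted p from 0.12 to 0.887).

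The remaining members were no clearer at this step. Tcf7l1 differed by 2.28 ± 2.24 (SE, adjusted p = 0.680) and Tcf7l2 by 0.87 ± 0.85 log2 units (SE, adjusted p = 0.677). With 1 library left out, Tcf7l1 ran from 1.11 (without EILP 2) to 5.02 (without ILCp 2), with 1.53 without EILP 5 and 1.31 without ILCp 1. Tcf7l2 ran from 0.50 (without EILP 5) to 1.34 (without ILCp 2). The 95% interval for Tcf7l2 ran from −0.93 to 2.67, and its sign differed between batches, at 1.65, −0.87 and 1.67 in batches 1, 2 and 4. No T, NK or B cell marker passed at this step in limma, against 3.21% of all genes. At an unadjusted p below 0.05 there were 0, 2 and 1 of them. As deposited, T cell markers summed to 8.12 to 122 CPM in ILCp, above the highest EILP library in part of the group. The NK cell markers summed to 23.2 to 153 CPM and the B cell markers to 27.1 to 70.1 CPM in ILCp. Their part in the Lef1 and Tcf7 differences was not tested.

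Over both steps, ILCp against ALP, 8.24% of all genes passed (3.86% higher and 4.39% lower in ILCp). The comparison shares its libraries with the others. Tcf7 was higher by 8.18 ± 1.36 log2 units (SE, adjusted p = 0.00117) and Lef1 was higher with ALP listed at 0 (adjusted p = 2.95e-08). Tcf7l2 fell by 3.30 ± 0.82 log2 units (SE, adjusted p = 0.0195 in limma). That call was lost without ALP 4 (−3.22), without ILCp 2 (−2.77) and without the Plzf-cre-GFP libraries (−3.28, adjusted p = 0.0554). Tcf7l1 differed by 3.18 ± 2.16 log2 units (SE, adjusted p = 0.450).

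**Figure D2:**
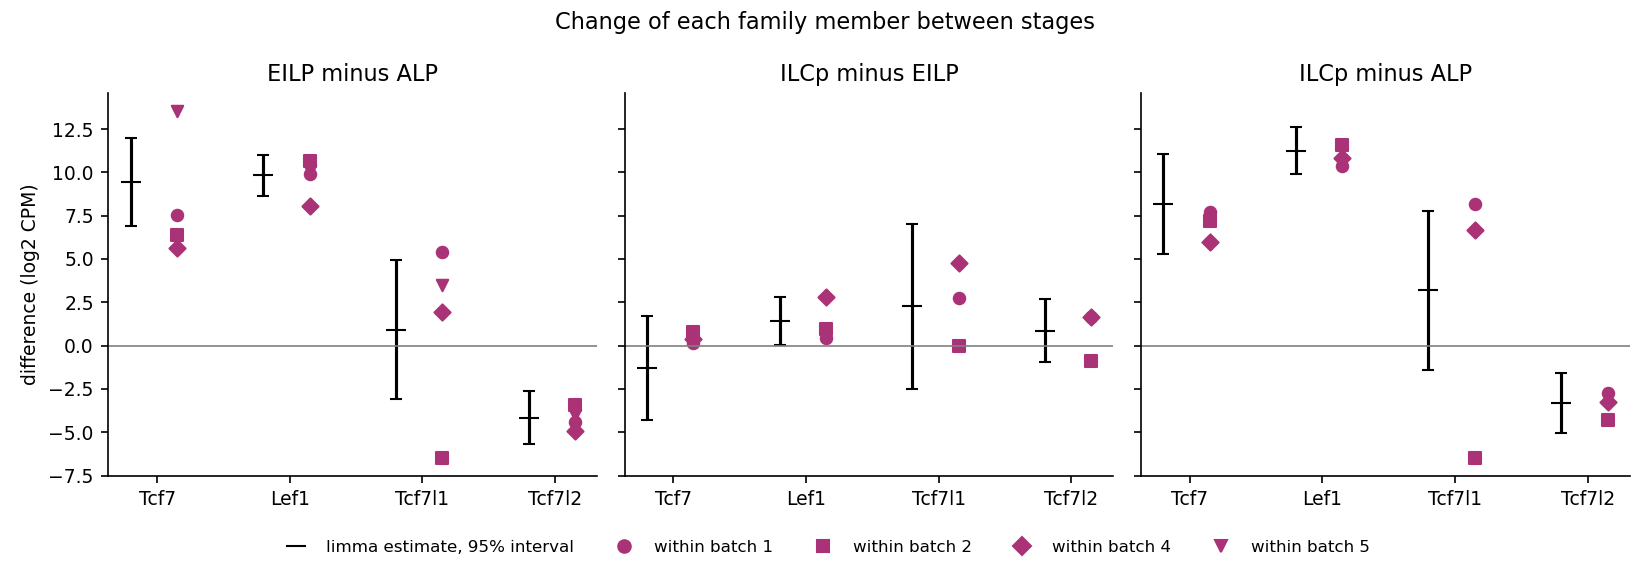
Difference of each TCF/LEF gene between stages in log2 CPM, with the limma estimate and its 95% interval (black) beside the difference of means within each batch that holds both groups (coloured, shape gives the batch). Differences of Lef1 against ALP are measured from the zero level and are no fold changes. Tcf7 in ILCp minus EILP has a model estimate of −1.28, below all its within-batch differences.

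A factor common to all genes of 1 library cancels in the distance between its Lef1 and Tcf7 levels. The shifts per gene and batch do not cancel, nor does the fitting of each library to a common set of levels. As deposited, Lef1 minus Tcf7 was −5.97 ± 1.84 log2 units in EILP (SD, n = 7) and −3.28 ± 0.69 in ILCp (SD, n = 5). In these values ILCp exceeded EILP by 2.69 log2 units (exact permutation test over libraries, two-sided, p = 0.00758), but batch shifts are part of that difference. EILP 6 and EILP 7, at −7.97 and −8.57, carry a Tcf7 shift of 2.30 and a Lef1 shift of −0.43, and their batch holds no ILCp library. The test moved libraries across batches, so its p does not separate stage from batch shift. It also counted EILP 3 and EILP 4, whose deposited levels average to the EILP mean for both genes. With shifts undone the EILP libraries ran from −6.88 to −4.47 and the ILCp libraries from −5.08 to −3.77, and the difference shrank to 0.93 (exact permutation p = 0.0429). Within the batches that hold both groups it was 0.96 (exact permutation p = 0.0625 over 16 arrangements, the lowest p that this many can give). Batch 4 carried most of it, where ILCp 3, ILCp 4 and ILCp 5 (−3.45, −3.19 and −2.285) stood against EILP 5 alone (−5.40). In batch 1 ILCp 1 was at −4.23 and EILP 1 at −4.50, and in batch 2 ILCp 2 was at −3.23 and EILP 2 at −3.41. EILP 5 was also the lowest EILP library for Lef1.

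Levels of different genes can be compared per length. CPM with shifts undone were divided by the exonic length in GENCODE M21, which is 2625 bases for Tcf7, 8788 for Lef1, 3924 for Tcf7l1 and 8775 for Tcf7l2. On this scale Tcf7l2 was the main member in most ALP libraries, with 1.39 to 7.76 CPM per kb and a share of 33.3% to 100% of the family's sum (median 69.8%). Tcf7 made up 0% to 66.7% of the sum in ALP (median 30.2%). In EILP, Tcf7 reached 191 to 666 CPM per kb and 98.6% to 99.7% of the sum, and in ILCp 432 to 745 CPM per kb and 97.3% to 98.8%. Lef1 stood at 0.954 to 5.81 CPM per kb in EILP and 4.23 to 11.4 in ILCp. Its share was 0.252% to 1.32% in EILP and 0.87% to 2.13% in ILCp. The order by median in EILP and ILCp was Tcf7, then Lef1, with Tcf7l1 and Tcf7l2 lowest. The last pair overlapped in both groups.

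**Figure D3:**
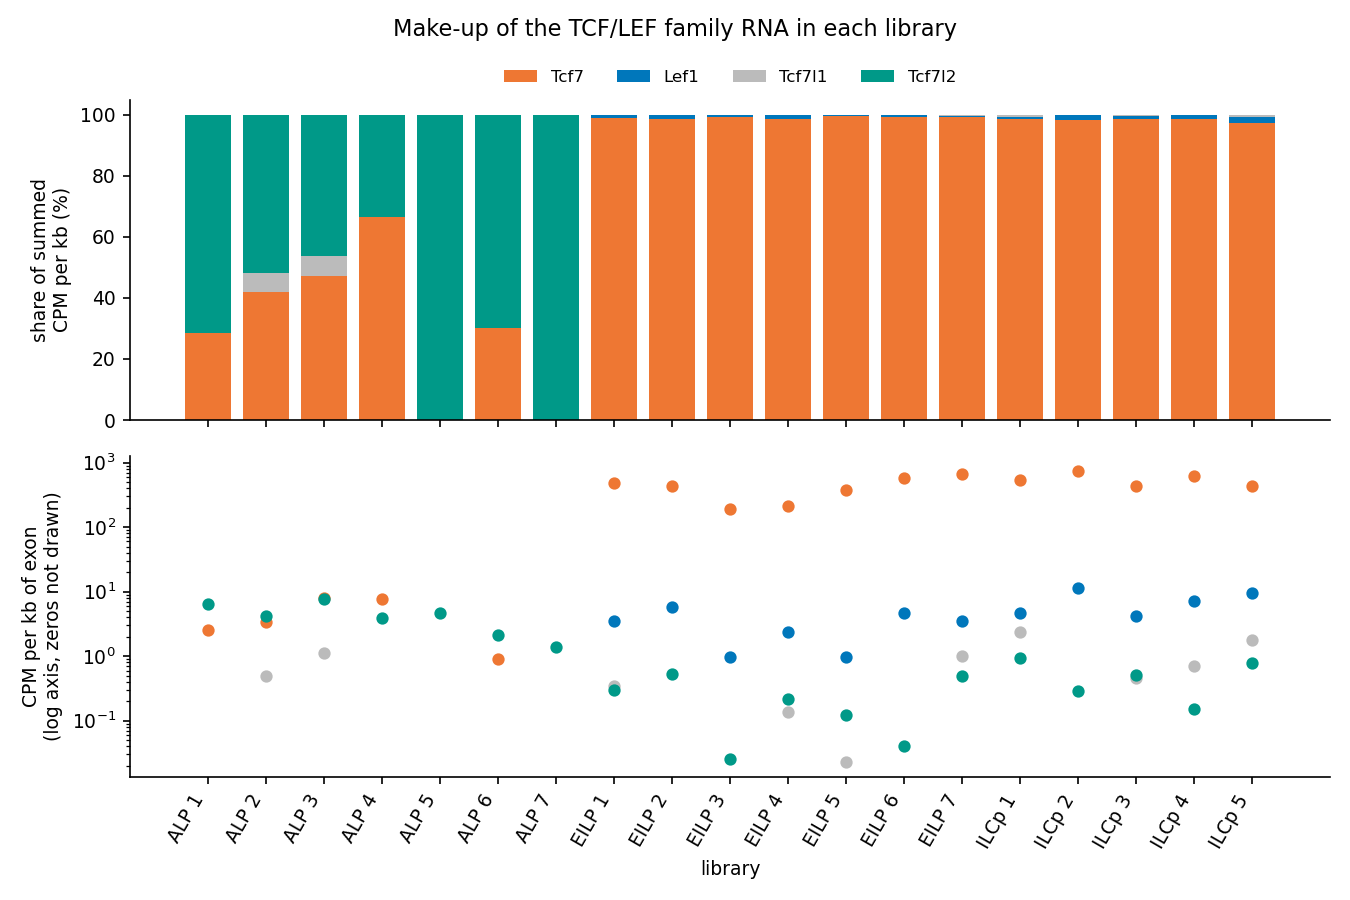
Share of each TCF/LEF gene in the family's summed CPM per kb of exon (top, %) and its CPM per kb on a log axis (bottom) in each of the 19 libraries, with batch shifts undone. Tcf7l2 makes up 33.3% to 100% in ALP, and Tcf7 at least 97.3% in every EILP and ILCp library.

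The Tcf7 locus holds further transcripts. A630014C17Rik, an antisense gene, spans 52276055 to 52286179 on the plus strand of chromosome 11 and overlaps Tcf7. Gm26551, a long noncoding gene on the strand of Tcf7, spans 51949882 to 52269514 and overlaps its other end. The library kits do not mark strand, so reads from these genes and from Tcf7 cannot be told apart where they overlap. A630014C17Rik was at zero in all 7 ALP libraries and at 3.62 ± 0.40 log2 CPM in EILP (SD, n = 7) and 2.97 ± 0.40 in ILCp (SD, n = 5), far below Tcf7. Gm26551 stood at −2.73 ± 2.48 in ALP (SD, n = 7), 0.12 ± 1.35 in EILP (SD, n = 7) and −3.46 ± 2.18 in ILCp (SD, n = 5), and passed in no comparison between stages (adjusted p in limma from 0.270 to 0.853). It was at zero in 6 of 7 ALP, 2 of 7 EILP and 2 of 5 ILCp libraries.

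Other genes followed Tcf7 and Lef1 across the 19 libraries. Likeness was the root mean square difference after each gene was centred on its own mean, where a smaller value means a closer profile. The nearest gene to Tcf7 was the overlapping A630014C17Rik (1.75 log2 units), and Trat1 (1.83), Alox5 (1.84) and Tnfrsf9 (1.85) were also among the 5 nearest. Lef1 was 26th on that list (2.21), and the median of all genes was 4.77. Nearest to Lef1 were Themis (0.71), Trbj1-1 (0.94), Tcrg-C2 (1.01), Tnfrsf9 (1.10) and Bcl11b (1.11), with a median of all genes of 5.16. Themis is a T cell receptor signalling protein, Trbj1-1 and Tcrg-C2 are segments of the T cell receptor β and γ loci, and Bcl11b is a T lineage transcription factor. Batch shifts are part of these profiles, and all 19 libraries share the 3 sorted groups. Tcf7l2 was 17979th in likeness to Tcf7 and 17942nd to Lef1.

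Genes for β-catenin, its regulators and its nuclear partners were counted beside the share of all genes that passed. Of 19 genes of β-catenin and its destruction complex, none passed between ALP and EILP in limma (3 at an unadjusted p below 0.05), against 5.05% of all genes, with a median change of 0.09 against 0.00 over all genes. From EILP to ILCp 2 rose and none fell, where 1.76% of all genes rose and 1.46% fell, with a median of 0.05 against −0.08 over all genes. Ctnnb1, which encodes β-catenin, averaged 8.61 ± 0.26 in ALP, 8.24 ± 0.16 in EILP and 8.15 ± 0.29 log2 CPM in ILCp (SD, n = 7, 7 and 5). None of 14 nuclear partners of β-catenin passed in any of the 3 stage comparisons in limma, and 1 had an unadjusted p below 0.05, between ALP and ILCp. Of all genes, 5.05%, 3.21% and 8.24% passed in EILP versus ALP, ILCp versus EILP and ILCp versus ALP. At such shares, a list of this length would hold few passing genes or none. Of 8 Groucho/TLE corepressors and their deacetylases, Tle3 alone passed. It was higher in ILCp than in ALP by 1.26 ± 0.37 log2 units (SE, adjusted p = 0.0465). Of all genes, 3.86% passed as higher in that comparison.

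Axin2 was the largest of the changes in that group. It encodes a scaffold of the destruction complex and is a widely used readout of Wnt signalling. It was at zero in all 7 ALP libraries and in 4 of 7 EILP libraries. The other EILP libraries stood at 1.41 (EILP 1), −3.97 (EILP 4) and 1.13 (EILP 7) log2 CPM with shifts undone. All 5 ILCp libraries had Axin2, at 4.07, 2.35, 2.50, 3.25 and 4.54. No EILP library reached the lowest ILCp library, and each ILCp library exceeded the EILP library of its batch. The deposited levels differed by 6.13 ± 1.28 log2 units between ILCp and EILP (SE, adjusted p = 0.0168), a size that depends on the zero level in 4 of the EILP libraries. Tnks2, a tankyrase that marks axins for degradation, rose by 0.72 ± 0.15 log2 units at the same step (SE, adjusted p = 0.0167).

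Of 19 measured canonical Wnt target genes, 4 rose and 1 fell between ALP and EILP, where 2.25% of all genes rose and 2.79% fell. Tcf7 and Lef1 themselves are among the 4. The rise of Tcf7 followed from the gate on its reporter, so the count of rises cannot be read against that share. The other risers were Mycn (2.56 ± 0.33, SE, adjusted p = 0.000160) and Rnf43. Myc fell by 0.72 ± 0.19 log2 units (SE, adjusted p = 0.0328). From EILP to ILCp Axin2 rose and Mycn fell by 1.76 ± 0.39 log2 units (SE, adjusted p = 0.0231). The median change of the list was −0.02 and 0.00 in these comparisons, against 0.00 and −0.08 over all genes. Mycn thus peaked in EILP, at 7.69 ± 0.20 log2 CPM (SD, n = 7) against 5.13 ± 0.73 in ALP (SD, n = 7) and 5.92 ± 0.48 in ILCp (SD, n = 5). Mycn and Myc are growth-promoting transcription factors. Over both steps 4 rose (Lef1, Tcf7, Axin2 and Rnf43) and 2 fell (Myc and Lgr5), where 3.86% of all genes rose and 4.39% fell. This count of rises again holds Tcf7, which was in the gate of part of the ILCp libraries.

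On the receptor side, Rnf43 was the one of 19 measured genes that passed between ALP and EILP, near the 5.05% of all genes. It encodes a ubiquitin ligase that removes Wnt receptors from the cell surface. Rnf43 was at zero in 5 of 7 ALP libraries and averaged 3.51 ± 1.77 log2 CPM in EILP (SD, n = 7) and 3.89 ± 1.28 in ILCp (SD, n = 5), higher in EILP than in ALP by 6.64 ± 1.14 log2 units (SE, adjusted p = 0.00209). None passed between EILP and ILCp in limma (1 at an unadjusted p below 0.05), against 3.21% of all genes. Between ALP and ILCp the receptor tyrosine kinase gene Ror1 rose beside Rnf43, and Lgr5, an R-spondin receptor gene, fell. Of all genes, 3.86% rose and 4.39% fell there. Lgr5 was at zero in every EILP and ILCp library and in 4 of 7 ALP libraries.

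Among Wnt ligands and the genes for their secretion, 10 of 21 were measured. Wnt11, a ligand gene, passed between ALP and EILP (adjusted p = 0.0372) but was at zero in all ALP libraries and 4 of 7 EILP libraries. Wls, which carries Wnt proteins to the cell surface, stood at 6.30 ± 0.37 log2 CPM in EILP (SD, n = 7) and 7.62 ± 0.26 in ILCp (SD, n = 5). It rose between them by 1.32 ± 0.26 log2 units (SE, adjusted p = 0.0116).

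Of 10 T lineage genes listed here as needing TCF-1 in mouse, 3 rose and 1 fell between ALP and EILP, against 2.25% and 2.79% of all genes. Between EILP and ILCp 3 rose, against 1.76% of all genes. Their median change was 4.47 and 1.83 log2 units, against 0.00 and −0.08 over all genes. Not all of the list followed Tcf7. Lck, Lat and Rag2 already stood at 7.82 ± 0.29, 5.06 ± 0.52 and 6.72 ± 1.65 log2 CPM in ALP (SD, n = 7), where Tcf7 was low. Lck and Lat changed by 0.14 ± 0.22 and 0.26 ± 0.30 log2 units between ALP and EILP (SE) and did not pass. Gata3, a transcription factor of T cells and innate lymphoid cells, averaged 1.55 ± 0.73 in ALP, 7.10 ± 0.46 in EILP and 10.06 ± 0.60 log2 CPM in ILCp (SD, n = 7, 7 and 5). It rose at both steps (adjusted p = 2.72e-07 and 0.00249). Bcl11b was at zero in all ALP libraries, at 4.39 ± 0.34 in EILP (SD, n = 7) and at 8.14 ± 0.46 in ILCp (SD, n = 5), and also rose at both steps (adjusted p = 4.87e-09 and 0.00163). Themis rose at the first step and Il2ra, the interleukin 2 receptor α chain, at the second (6.83 ± 1.43 log2 units, SE, adjusted p = 0.0168). Il2ra was at zero in all 7 EILP and 1 of 5 ILCp libraries, so this size is no fold change. The Cd3 genes of this list are also among the T cell markers. Rag2, a recombinase of antigen receptor genes, fell by 6.86 ± 1.23 log2 units between ALP and EILP (SE, adjusted p = 0.00274). This size depends on the zero level in 2 of 7 EILP libraries.

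Other HMG-box factors, of the Sox family, did not move as a group. Of 8 measured, Sox13 alone passed between ALP and EILP, where 5.05% of all genes passed. It fell by 5.41 ± 1.43 log2 units (SE, adjusted p = 0.0390), with 4 of 7 EILP libraries at zero. None passed from EILP to ILCp or from ALP to ILCp in limma, against 3.21% and 8.24% of all genes. In these comparisons 1 and 2 genes had an unadjusted p below 0.05. In the reporter strain contrast no gene of these lists passed in limma, against 0.0752% of all genes. At most 2 genes of any list had an unadjusted p below 0.05 in that contrast.

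**Figure D4:**
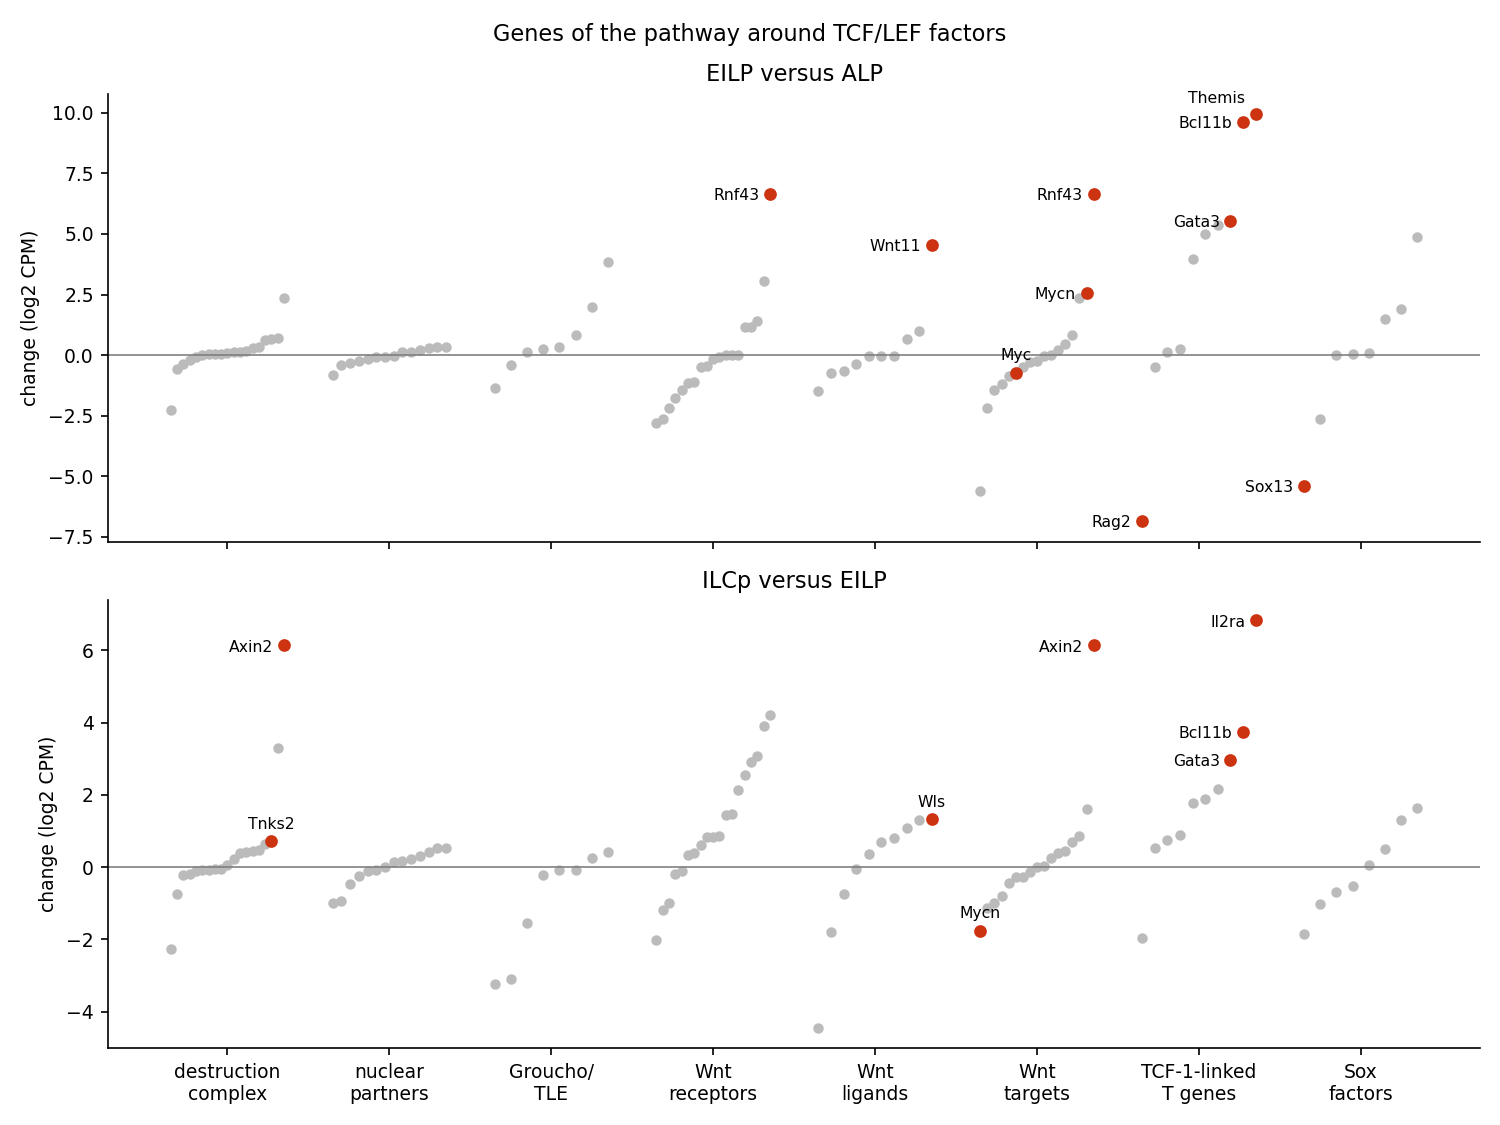
Change of each measured gene of 8 lists around the TCF/LEF factors between ALP and EILP (top) and between EILP and ILCp (bottom), in log2 CPM from limma, without the 4 family members. Each point is 1 gene, ordered by its change within the list, and named red points passed an adjusted p of 0.05. Axin2 (6.13) stands apart from the rest of its list in the lower panel, and no nuclear partner is red in either.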

How the data were processed

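Bulk RNA of sorted mouse progenitors was converted with the SMARTer Ultra Low kit (v3) and made into libraries with Nextera XT, as the labels' protocols state. Per the submitters' processing notes, bcl2fastq 1.8.4, STAR 2.4.0h, edgeR, limma and mm10 are named, with no role or order given; how reads were counted is not given in the sources used here. Log2 CPM of 18607 genes make up the deposited table. From the values, these log2 levels had been brought to a common set of levels (15923 were used by at least 2 genes) and then shifted per gene and batch. No header or label records this.

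The shift was found for each gene as the one that puts a batch's libraries back on the common set (tolerance 3e-08, tied libraries counted once), for batches 1, 2, 4 and 5 of 15462 genes. The shift of batch 3 was taken as minus the sum of the others. As a check, 82.4% and 79.9% of values of its libraries, EILP 3 and EILP 4, then fell on a level, against 0% with an offset of 0.0137 added. For Tcf7, batches 1 and 3 were searched jointly, and 5 of 5 libraries fell on a level against 2 at the next best shift. EILP 3 and EILP 4 for Lef1, and EILP 4 for Tcf7l1 and Tcf7l2, did not fall on a level. In the deposited table the summed CPM ran from 908573 to 1035204 per library, and read depth is unknown.

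Libraries were grouped by title and compared with limma 3.58.1 in R 4.3.3 (mean-variance trend, two-sided) on the deposited values, with group and batch as fixed effects in all 19 libraries and Benjamini-Hochberg adjustment over all genes. Removing batch before deposit uses degrees of freedom that a model without a batch term does not count, and it changes the SDs within groups. Batch 3 holds EILP alone and batch 5 no ILCp. For each member the deposited levels of batch 3 average to the EILP mean, so its libraries add nothing to a deposited group difference. The difference of Lef1 and Tcf7 was tested by exact permutation over 792 arrangements with SciPy 1.17.1. The code was tested on simulated data. Named genes were the 4 members, up to 2 rising and 2 falling genes with the smallest p per list and comparison, the 5 nearest profiles of Tcf7 and of Lef1, and sort markers; 13 lists were used. Some genes that this rule names are not reported here. Ctnnb1 and genes that complete a small count were named after their values were seen. Members and lists were chosen with earlier results of these data known. Numbers were not used as pairs. In the deposited values, same-numbered libraries of the same batch had correlations from −0.567 to −0.147, and those of different batches from −0.025 to 0.049. Removing batch makes libraries of a batch deviate in opposite directions, so these correlations cannot decide whether same-numbered libraries were paired. Other settings changed the batch term, the groups fitted, scaling, filter, trend and libraries.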

Additional observations from a re-analysis of the deposited data

Results flagged for a closer look

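Tcf7l1 in ILCp 2 stood apart from the other ILCp libraries, at −5.21 log2 CPM as deposited against 0.55 to 2.49 in the other 4, and it was the one ILCp library at zero. The gap to its nearest neighbour was 0.748 of the group's range, above Dixon's 95% critical value for 5 libraries. It was the only one of 12 groups tested (4 genes in 3 stages) to exceed its critical value. Chance gives about 1 in 20 for each group, so 1 among 12 is not unusual. The test also assumes normal values, which levels at zero do not meet. Batch 2 was unlike the other batches for this gene, since both of its ALP libraries had Tcf7l1 while its EILP and ILCp libraries were at zero.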

How the results depend on the processing

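Calls of Tcf7, Lef1 and Tcf7l2 between EILP and ALP, and of Tcf7 and Lef1 between ILCp and ALP, held in all fits that left out 1 library. Of 392 values from such fits, 364 were labelled the same as in the main fit, as were 178 of 211 under other settings. For a test this meant the same direction and side of the threshold. For a count of called genes, also among these values, it meant a count close in size to the main one. Between EILP and ALP, batch 5 alone (5 libraries) gave 13.55 for Tcf7 and −4.03 for Tcf7l2, without a call (adjusted p = 0.184 and 0.485). Tcf7l2 between ILCp and ALP gave −3.28 without the Plzf-cre-GFP libraries, and −3.55 to −2.77 with 1 library left out. Tcf7l1 between EILP and ALP ran from −0.64 to 2.10, turning negative without ALP 1 or EILP 7, and between ILCp and ALP it was called with batch as a random effect (3.18).

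Tcf7 between ILCp and EILP reversed to 0.43 with only those groups fitted and to 0.50 on levels with shifts undone; the cause was not tested. Lef1 at that step kept 1.42 and was called without a batch term or with batch as a random effect, both of which use degrees of freedom that the removal of batch had spent. With 1 library left out it ran from 0.73 (without EILP 5) to 1.75, and over all settings its adjusted p ran from 0.000363 to 0.660. Lef1 minus Tcf7 fell to 2.34 without the Plzf-cre-GFP libraries (exact permutation p = 0.05) and to 0.96 within batches. Between reporter strains, Tcf7 ran from −0.80 to 0.85 and Tcf7l2 from −1.21 to 1.12 with 1 library left out.

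Counts of called genes also moved. Without a batch term they were 2551, 3047, 3856 and 6 for EILP versus ALP, ILCp versus EILP, ILCp versus ALP and the strains, and with batch as a random effect 3391, 8201, 11610 and 0 (143 at an unadjusted p below 0.05). The replicate block gave 1613, 1484, 2362 and 0 (968 unadjusted), and 0.72 for Tcf7 between the strains. With only the groups compared, ILCp versus EILP gave 183 and ILCp versus ALP 772; without the Plzf-cre-GFP libraries they gave 254 and 1012, and with no trend the former gave 280. With 1 library left out ILCp versus EILP gave 224 to 624 (355, 224, 384 and 316 without EILP 2, EILP 5, ILCp 1 and ILCp 2) and ILCp versus ALP 920 to 1584 (lowest without ILCp 2). The strain contrast gave 11 to 236 with 1 left out, 9 after quantile normalization, 0 among the more highly expressed 9304 genes (321 unadjusted), 33 with no trend, 37 without batch 3 and 31 with shifts undone. Centring libraries on their median moved the median change of all genes between EILP and ALP from 0.00 to 0.22 and reversed no member. Levels with shifts undone were chosen as a setting after the data were seen. Lef1 and Tcf7l1 have no value among those 9304 genes.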
